A study of Mus musculus with 9 samples.

Results

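Described here are 10 genes that are commonly read together as markers of the epithelial and the mesenchymal state of a carcinoma cell. They are the keratin genes Krt7, Krt8 and Krt18, the vimentin gene Vim, and 6 genes for transcription factors of epithelial-mesenchymal transition (EMT), namely Zeb1, Zeb2, Snai1, Snai2, Twist1 and Prrx1. They were picked by name, as known EMT genes, and looked up through their Ensembl identifiers among the 55335 genes of the count files. The choice was made with earlier results of these data known, so it was not blind to them. All 10 were found, and 9 had enough counts to be tested, since Krt7 was too low.

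The cells were of the murine breast cancer line D2A1-d, used in a study of Mediator and metastatic dormancy. The first group, shMed1 #4, carried a short hairpin RNA against Med1. The group shMed1 #2 carried another hairpin against Med1, and both are labelled as knockdowns. The control group NTC carried a non-targeting hairpin and is labelled wild type. All groups are the same line, grown in medium with fetal bovine serum, and each has 3 libraries that the labels call biological replicates. Whether each replicate is a transduction or a culture of its own is not said, and a p-value here measures the spread between these libraries, which may be technical. In bulk RNA, fewer cells of a type and less RNA per cell cannot be told apart.

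Intermediate filaments give a cell much of its mechanical strength, and their protein changes with cell type. Simple epithelia, such as the luminal lining of the mammary gland, build them from a type II keratin (Krt8, Krt7) paired with a type I keratin (Krt18), while mesenchymal cells use the type III protein vimentin. During EMT a carcinoma cell loses keratins and junctions and gains vimentin, and the factors of the ZEB, SNAIL and TWIST families and Prrx1 are known to drive or accompany that change, several of them by repressing epithelial genes through the DNA motif CACCTG.

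The libraries held 8123918 to 8879982 counts, and 13611 genes were tested. Med1, the target of both hairpins, was measured in CPM, a count relative to the library's total and scaled by TMM, and averaged 25.7 ± 0.808 CPM with shMed1 #4, 24.0 ± 1.67 CPM with shMed1 #2 and 84.3 ± 4.02 CPM in NTC (SD, n = 3 each). Its log2 fold change against NTC was -1.71 with shMed1 #4 and -1.81 with shMed1 #2, and shMed1 #4 differed from shMed1 #2 by 0.10 (95% interval -0.08 to 0.28). Of the markers of luminal mammary cells besides Krt8 and Krt18, Epcam and Elf5 had no count in any library, and Cdh1, Krt19, Esr1 and Prlr reached at most 2 counts in any library. These luminal marker RNAs were thus at or near 0 at this depth, while Krt8 and Krt18 were detected in all 9 libraries.

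Krt8 and Krt18 are neighbours and are shown with their start regions because both fell with each hairpin, while Vim rose. Krt8 (ENSMUSG00000049382.10) lies on the minus strand at chr15:101996698-102004482 and Krt18 (ENSMUSG00000023043.7) on the plus strand at chr15:102028180-102032027 (GRCm38). Their ends are 23697 bases apart with 0 annotated genes lying wholly between them. Genes that overlap Krt8 or Krt18 were not counted there. Their start sites, those of Krt8 and Krt18, face each other across that gap, so that the 2 genes are read in opposite directions. Vim (ENSMUSG00000026728.9) lies on the plus strand at chr2:13573927-13582826. The following windows run from 250 bases before to 50 bases after a start site, 5′ to 3′ on the gene's strand, from the RefSeq annotation of GRCm38.p6, at chr15:102004293-102004592 for Krt8, chr15:102027966-102028265 for Krt18 and chr2:13574061-13574360 for Vim. Capitals mark CACCTG or CAGGTG, which are the same motif read on the 2 strands.
Krt8: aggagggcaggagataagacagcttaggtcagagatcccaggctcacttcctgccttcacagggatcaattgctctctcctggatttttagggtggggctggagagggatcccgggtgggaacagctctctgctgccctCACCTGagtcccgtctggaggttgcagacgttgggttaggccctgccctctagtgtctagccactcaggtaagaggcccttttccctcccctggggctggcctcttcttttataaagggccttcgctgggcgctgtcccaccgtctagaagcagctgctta
Krt18: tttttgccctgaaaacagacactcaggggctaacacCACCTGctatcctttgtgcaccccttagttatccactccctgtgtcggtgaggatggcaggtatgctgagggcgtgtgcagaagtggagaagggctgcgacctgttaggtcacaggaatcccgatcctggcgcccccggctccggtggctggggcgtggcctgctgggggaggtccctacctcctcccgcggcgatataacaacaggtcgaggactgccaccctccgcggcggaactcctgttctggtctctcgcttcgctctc
Vim: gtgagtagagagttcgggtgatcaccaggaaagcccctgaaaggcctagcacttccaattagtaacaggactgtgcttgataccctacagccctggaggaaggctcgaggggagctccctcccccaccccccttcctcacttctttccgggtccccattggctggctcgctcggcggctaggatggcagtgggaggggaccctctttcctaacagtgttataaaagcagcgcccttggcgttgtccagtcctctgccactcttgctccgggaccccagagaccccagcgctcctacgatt

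The motif stood once in the Krt8 window, 111 bases before the start, and once in the Krt18 window, 214 bases before it. It stood once before Krt7 (44 bases) and once before Snai1 (126 bases), and in none of the windows of Vim, Zeb2, Twist1 and Prrx1. These starts are those of RefSeq and can differ from the gene ends given above, which come from GENCODE. The motifs of Krt7 and Krt8 and the whole Vim window lie inside the GENCODE genes. No window of Zeb1 or Snai2 was used here. Among 32851 start windows of mouse genes, 20.2% held the motif, and 72.3% held the looser CANNTG, of which CACCTG and CAGGTG are cases. A match describes the letters of a window and was not set against binding of any factor.

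Krt8 mRNA was lower with each hairpin. Krt8 stood at 3.84, 2.53 and 4.06 CPM (33, 21 and 35 counts) with shMed1 #4, at 2.53, 1.74 and 1.498 CPM (22, 15 and 13 counts) with shMed1 #2, against 6.91, 6.99 and 5.56 CPM (57, 58 and 48 counts) in NTC. Every hairpin library was below every NTC library, while the ranges of the hairpins met at 2.53 CPM. The log2 fold change was -0.89 with shMed1 #4 (SE 0.213, adjusted p = 0.000629, edgeR's quasi-likelihood test with Benjamini-Hochberg adjustment) and -1.74 with shMed1 #2 (SE 0.241, adjusted p = 3.10e-09). Directly compared, shMed1 #4 was above shMed1 #2 by 0.85 (SE 0.272, adjusted p = 0.0131). That last call was lost when replicate 1 or 3 of shMed1 #4, or replicate 2 or 3 of shMed1 #2, was left out (adjusted p = 0.0535 to 0.085). The lincRNA gene Gm36026 overlaps 101 bases of Krt8 exons on the other strand and had 3 to 12 counts, and the pseudogene Krt8-ps had 0.

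Krt18, the type I partner, was lowest with shMed1 #2. Krt18 stood at 47.8, 38.8 and 44.5 CPM with shMed1 #4, at 18.6, 20.3 and 17.5 CPM with shMed1 #2, against 50.3, 51.0 and 50.9 CPM in NTC. The shMed1 #2 libraries lay far below all others, and the highest shMed1 #4 library was still below the lowest NTC library. The log2 fold change was -1.43 with shMed1 #2 (SE 0.0869, adjusted p = 2.68e-25), a level 2.70-fold lower than in NTC. With shMed1 #4 it was -0.21 (SE 0.0753, adjusted p = 0.024), and this small decrease was not called by DESeq2 (adjusted p = 0.0939), without any of the 3 NTC replicates in turn (0.0506 to 0.0655) or without shMed1 #4 replicate 2, where it was -0.14 (adjusted p = 0.237). Between the hairpins Krt18 was higher with shMed1 #4 by 1.22 (SE 0.0888, adjusted p = 4.11e-20).

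Per kilobase of exon, Krt18 was more abundant than Krt8 in every library, by a factor that varied between libraries. The ratio of Krt18 to Krt8, on the scale of CPM per kilobase, was 16.97, 20.9 and 14.9 with shMed1 #4, 10.0, 15.9 and 15.9 with shMed1 #2, and 9.92, 9.94 and 12.49 in NTC. The shMed1 #4 ratios were all above the NTC ratios, while those of shMed1 #2 overlapped the ratios of both other groups. No test was made of this ratio.

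Krt7, the other type II keratin of simple epithelia, was close to the limit of detection. It had 3, 3 and 8 counts with shMed1 #4, 10, 5 and 7 counts with shMed1 #2, and 1, 2 and 3 counts in NTC. The shMed1 #2 libraries lay above all NTC libraries, and those of shMed1 #4 overlapped both. The sums were 14 counts with shMed1 #4 (95% Poisson interval 7.65 to 23.5), 22 with shMed1 #2 (13.8 to 33.3) and 6 in NTC (2.20 to 13.1), intervals that cover counting error only. Without the filter on low counts, Krt7 was called higher with shMed1 #2 (log2 fold change 1.77, SE 0.681, adjusted p = 0.0452) and not with shMed1 #4 (1.16, adjusted p = 0.422), so its direction was opposite to that of Krt8 and Krt18. The antisense gene Gm671 overlaps 77 bases of Krt7 exons and had 0 to 3 counts of its own. These are not part of the Krt7 counts, but they are not small beside values this low.

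Beyond these 3, most keratin genes were silent. Of the 53 protein-coding keratin genes of the annotation, 30 had no count in any library and 18 reached at most 9. The others were Krt7, Krt8, Krt10, Krt18 and Krt80.

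Vim, which encodes the filament protein of mesenchymal cells, rose with both hairpins. It stood at 2445, 2481 and 2404 CPM with shMed1 #4, at 2827, 2800 and 2705 CPM with shMed1 #2, against 1862, 1898 and 1856 CPM in NTC. The 3 groups were fully separate, with shMed1 #2 highest and NTC lowest. The log2 fold change was 0.38 with shMed1 #4 (SE 0.0367, adjusted p = 1.17e-14) and 0.57 with shMed1 #2 (SE 0.0367, adjusted p = 8.01e-24), which is 1.31-fold and 1.48-fold. Between the hairpins Vim was lower with shMed1 #4 (log2 difference -0.18, SE 0.0365, adjusted p = 3.89e-05). These calls of Vim, like those of Krt8 against NTC with each hairpin, held in every alternative fit in which the genes were tested.

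The ratio of Vim to Krt18 RNA within a library followed the same order of groups. On the scale of CPM per kilobase, the ratio of Vim to Krt18 was 15.5, 19.4 and 16.4 with shMed1 #4, 46.0, 41.8 and 46.8 with shMed1 #2, and 11.2, 11.3 and 11.04 in NTC. It averaged 17.1 ± 2.05 with shMed1 #4, 44.8 ± 2.71 with shMed1 #2 and 11.2 ± 0.129 in NTC (SD, n = 3 each). The groups did not overlap, and no test was made of the ratio. It does not stand for keratin RNA as a whole, since Krt80 rose with both hairpins. Krt80 averaged 41.9 CPM with shMed1 #4, 45.3 CPM with shMed1 #2 and 28.6 CPM in NTC. A ratio of Vim to all keratin RNA was not computed.

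**Figure D1:**
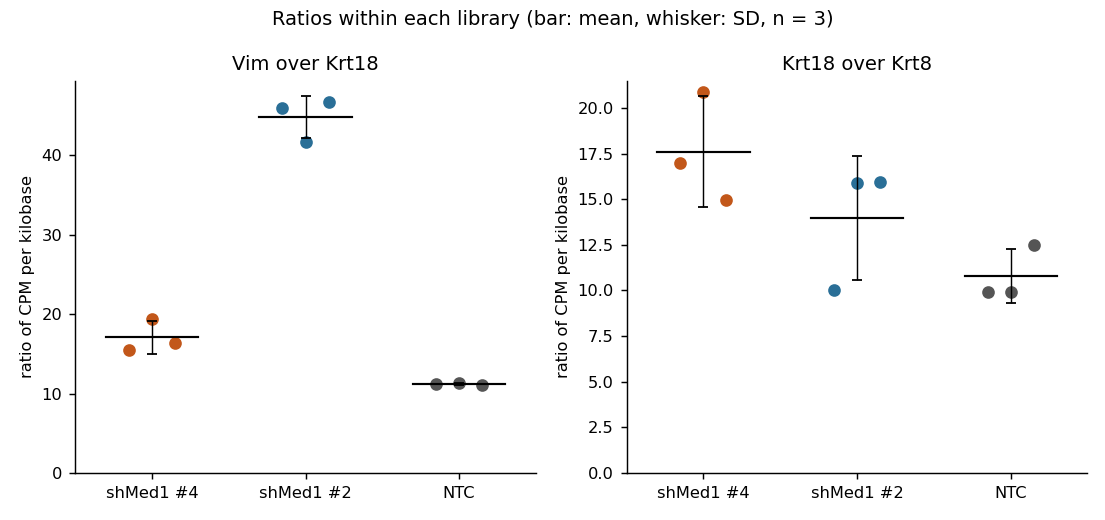
Ratio of Vim to Krt18 (left) and of Krt18 to Krt8 (right) in each library, from CPM per kilobase of exon, for shMed1 #4, shMed1 #2 and NTC; points are libraries, bars the mean and whiskers the SD (n = 3). The 3 shMed1 #2 libraries sit between 41.8 and 46.8 for Vim over Krt18, above all others, while the ratios of the keratins overlap between the hairpins.

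Of the EMT factors, the ZEB pair and Twist1 kept nearly the NTC level. Zeb1, a zinc finger homeobox repressor of epithelial genes on chromosome 18, stood at 55.9, 55.8 and 51.5 CPM with shMed1 #4, at 58.6, 55.2 and 51.6 CPM with shMed1 #2, against 57.2, 62.8 and 52.6 CPM in NTC. Its groups overlapped, with log2 fold changes of -0.08 for shMed1 #4 (95% interval -0.22 to 0.06) and -0.06 for shMed1 #2 (-0.20 to 0.08). Its paralogue Zeb2 (minus strand, chr2:44983632-45117395) averaged 58.7 ± 3.36 CPM with shMed1 #4, 60.9 ± 1.34 CPM with shMed1 #2 and 55.8 ± 2.99 CPM in NTC (SD, n = 3 each).

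The log2 fold change of Zeb2 was 0.07 with shMed1 #4 (95% interval -0.06 to 0.21, adjusted p = 0.455) and 0.13 with shMed1 #2 (-0.01 to 0.26, adjusted p = 0.116), where the shMed1 #2 libraries lay above the NTC libraries without passing the test. Twist1, a basic helix-loop-helix factor (plus strand, chr12:33957671-33959829), averaged 57.8 ± 3.63 CPM with shMed1 #4, 56.6 ± 3.15 CPM with shMed1 #2 and 58.2 ± 1.71 CPM in NTC (SD, n = 3 each). Its log2 fold change was -0.01 with shMed1 #4 (95% interval -0.14 to 0.13) and -0.04 with shMed1 #2 (-0.17 to 0.09). The 95% intervals of Zeb1 and Twist1 against NTC thus lie between -0.22 and 0.13. Antisense genes overlap Zeb1 (Gm10125, 198 exon bases, 0 to 9 counts) and Zeb2 (Zeb2os, 653 exon bases, 2 to 17 counts), few beside the 443 or more counts of Zeb1 and Zeb2 in each library.

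The SNAIL pair moved little and not together. Snai1 (plus strand, chr2:167538195-167542814), a zinc finger repressor whose best known target is the E-cadherin gene Cdh1, stood at 50.7, 46.5 and 46.7 CPM with shMed1 #4, at 38.3, 41.9 and 41.0 CPM with shMed1 #2, against 46.3, 50.5 and 48.7 CPM in NTC. The shMed1 #2 libraries lay below all others, and those of shMed1 #4 overlapped NTC. Snai1 fell with shMed1 #2 (log2 fold change -0.26, SE 0.0733, adjusted p = 0.002) and was not called with shMed1 #4 (-0.02, 95% interval -0.16 to 0.13, adjusted p = 0.899). It was higher with shMed1 #4 than with shMed1 #2 by 0.25 (SE 0.0733, adjusted p = 0.00694), a call lost without replicate 1 of shMed1 #4 (adjusted p = 0.062) or replicate 1 of shMed1 #2 (0.0551).

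Snai2 (plus strand, chr16:14705852-14709385), also called Slug, stood at 65.9, 53.8 and 49.0 CPM with shMed1 #4, at 58.7, 51.9 and 56.0 CPM with shMed1 #2, against 51.4, 49.5 and 49.1 CPM in NTC. The spread was widest with shMed1 #4, whose lowest library was level with the lowest NTC library and whose highest was above every other library. Neither hairpin passed the test against NTC: the log2 fold change was 0.17 with shMed1 #4 (adjusted p = 0.0846) and 0.15 with shMed1 #2 (adjusted p = 0.0951). For shMed1 #4 the value was 0.26 without its replicate 3 (adjusted p = 0.00636) and 0.04 without its replicate 1 (adjusted p = 0.769). For shMed1 #2 the adjusted p was 0.0436 without its replicate 2. The mean of both hairpins was called higher (0.16, SE 0.0655, adjusted p = 0.0431), which held under 7 of 17 alternatives.

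Prrx1, a paired-related homeobox factor of mesenchyme (minus strand, chr1:163245119-163313710), had the largest change of the 9 tested genes, with shMed1 #2. It stood at 11.99, 13.6 and 10.4 CPM with shMed1 #4, at 3.22, 1.97 and 2.65 CPM with shMed1 #2, against 16.0, 12.53 and 13.9 CPM in NTC. All shMed1 #2 libraries were far below the rest, while shMed1 #4 overlapped NTC. The log2 fold change was -2.43 with shMed1 #2 (SE 0.183, adjusted p = 4.61e-20), a level 5.38-fold lower than in NTC, and -0.24 with shMed1 #4 (95% interval -0.51 to 0.03, adjusted p = 0.198). Between the hairpins Prrx1 was higher with shMed1 #4 by 2.19 (SE 0.189, adjusted p = 1.84e-16). This mesenchymal factor therefore moved in the same direction as the keratins Krt8 and Krt18 with shMed1 #2, and opposite to Vim.

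**Figure D2:**
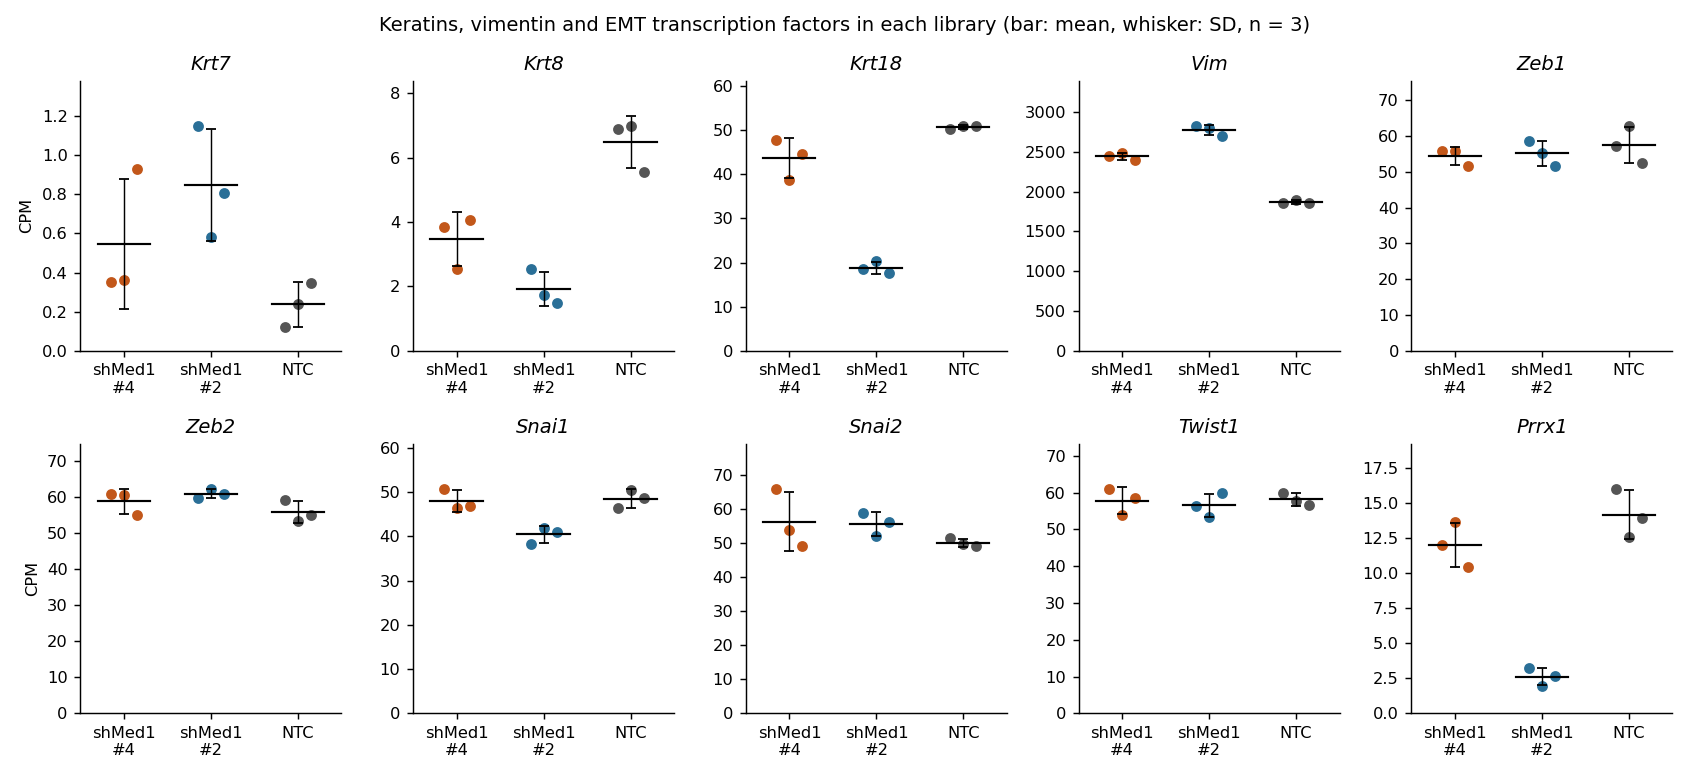
CPM of each of the 10 genes in the 9 libraries, by group in the order shMed1 #4, shMed1 #2 and NTC; points are libraries, bars the mean and whiskers the SD (n = 3), with axes starting at 0. Krt18 and Prrx1 stand lowest with shMed1 #2, Vim stands highest there, and Zeb1 and Twist1 have overlapping groups.

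Counted over the 9 tested genes, 1 rose and 2 fell with shMed1 #4, where 28.2% of all tested genes were called. With shMed1 #2, 1 rose and 4 fell, where 43.7% of all tested genes were called. With both hairpins, 1 of the 9 rose (Vim), where 10.4% of all tested genes rose with both, and 2 fell (Krt8 and Krt18), where 10.1% fell with both. The comparisons of the hairpins with NTC share the NTC libraries. On the mean of both hairpins 2 rose (Vim and Snai2) and 3 fell (Krt8, Krt18 and Prrx1), where 39.9% of all tested genes were called. The median log2 fold change of the 9 genes was -0.02 with shMed1 #4, against 0.00086 over all tested genes, and -0.06 with shMed1 #2, against -0.0035 over all tested genes. Against these backgrounds, counts over 9 genes are a description and not a result particular to them.

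In the direct comparison of the hairpins, 4 of the 9 genes were higher with shMed1 #4 (Krt8, Krt18, Snai1 and Prrx1) and Vim was lower, where 26.0% of all tested genes were called. The count was 3 without replicate 1 of shMed1 #4. Med1 itself did not pass the test between the hairpins (adjusted p = 0.461). Against NTC, all 5 genes were called with shMed1 #2, where 43.7% of all tested genes were called. Krt8, Krt18 and Vim were called with shMed1 #4, where 28.2% were called. The 5 were picked by the difference between the hairpins, which uses the same hairpin libraries, so these calls are no separate support.

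**Figure D3:**
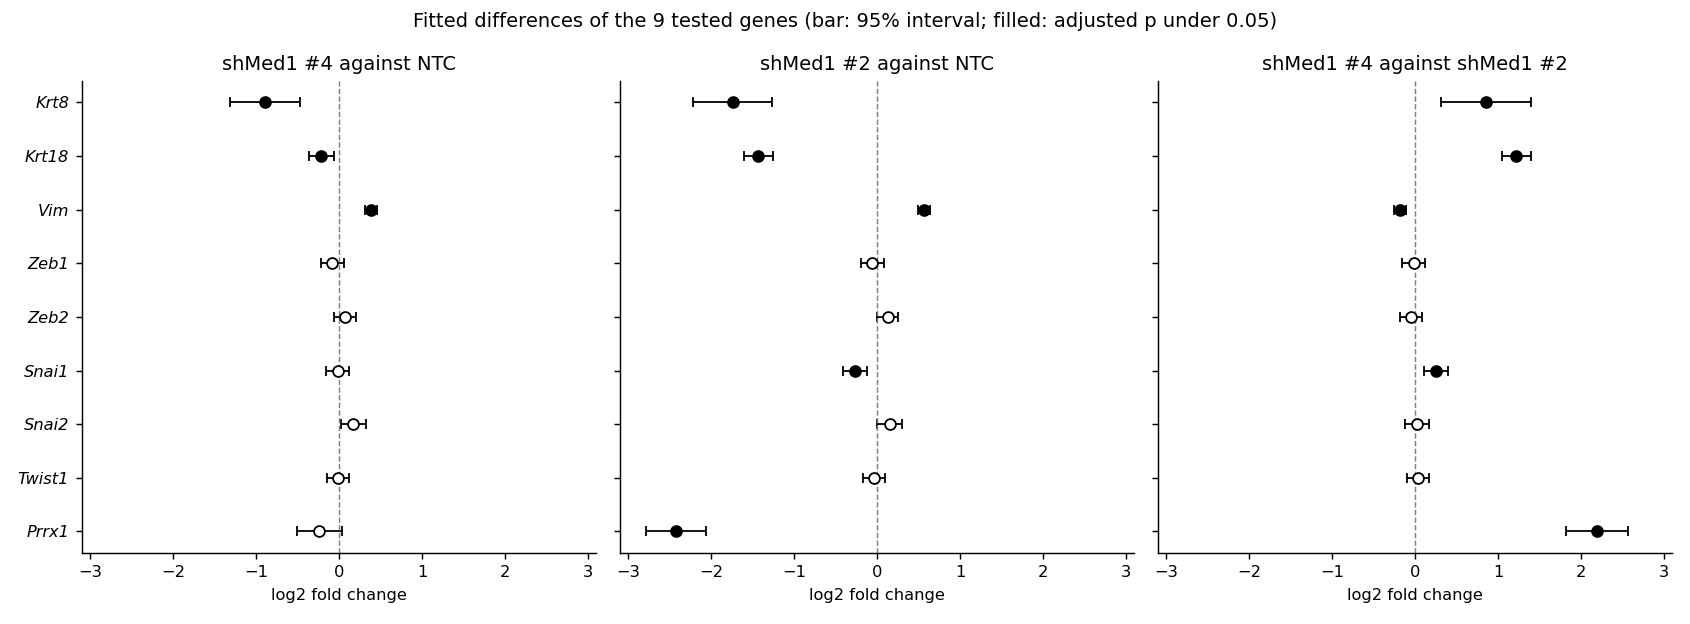
Log2 fold changes of the 9 tested genes for shMed1 #4 against NTC, shMed1 #2 against NTC and shMed1 #4 against shMed1 #2; bars are 95% intervals and filled points have an adjusted p under 0.05. Prrx1 lies at -2.43 with shMed1 #2 and at -0.24 with shMed1 #4, and only Krt8, Krt18 and Vim are filled for both hairpins against NTC.

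The order of the genes by level, per kilobase of exon, differed between groups in the places of Krt18 and Snai2, and of Krt8 and Zeb2. Vim averaged 515 ± 8.11 CPM per kilobase with shMed1 #4, 586 ± 13.5 with shMed1 #2 and 395 ± 4.87 in NTC (SD, n = 3 each). Twist1 followed in each group, at 35.5 CPM per kilobase with shMed1 #4, 34.8 with shMed1 #2 and 35.7 in NTC. Krt18 was next with shMed1 #4 (30.4 CPM per kilobase) and in NTC (35.3), but stood below Snai2 and Snai1 with shMed1 #2 (13.1). Levels of Twist1 and Krt18 overlapped in NTC, as did Twist1, Krt18, Snai1 and Snai2, each with the next, for shMed1 #4, and Snai2 and Snai1 for shMed1 #2.

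At the lower end, Zeb1 averaged 5.30 CPM per kilobase with shMed1 #4, 5.37 with shMed1 #2 and 5.60 in NTC, and Zeb2 2.94 with shMed1 #4, 3.05 with shMed1 #2 and 2.80 in NTC. Krt8 averaged 1.77 CPM per kilobase with shMed1 #4, 0.982 with shMed1 #2 and 3.31 in NTC, and Prrx1 1.09 with shMed1 #4, 0.236 with shMed1 #2 and 1.28 in NTC. Krt7 was lowest in each group, at 0.0774 CPM per kilobase with shMed1 #4, 0.120 with shMed1 #2 and 0.0336 in NTC. In NTC, Krt8 and Zeb2 overlapped, while Krt8 was below Zeb2 with each hairpin. Transcripts that use only some exons make such a level a lower estimate, so the order holds for this annotation.

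**Figure D4:**
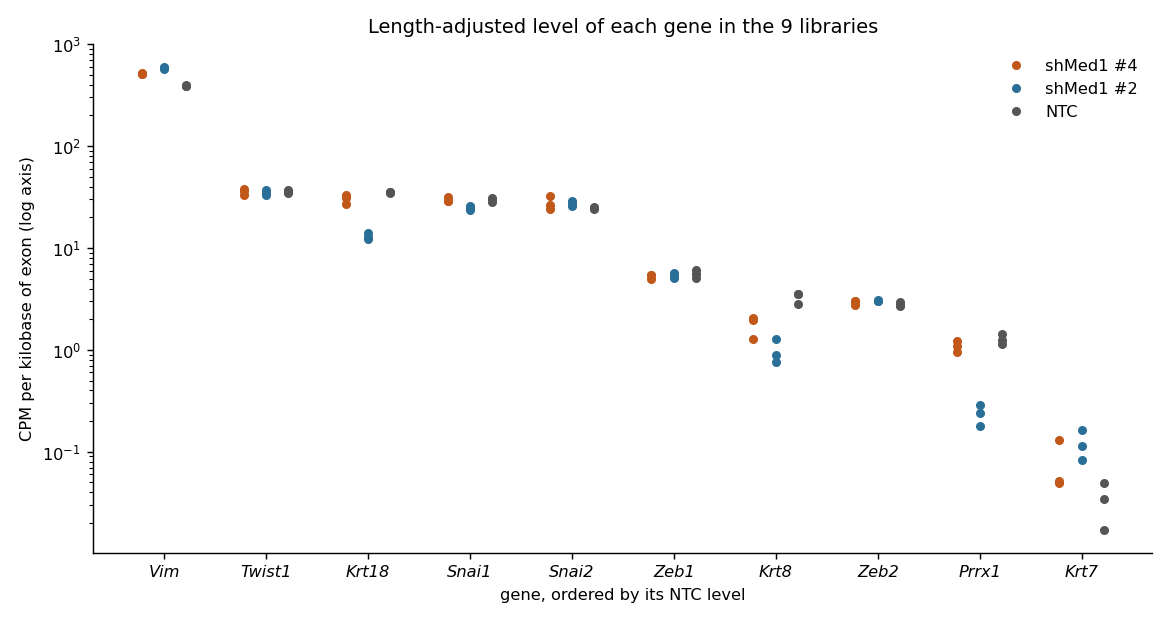
Level of each of the 10 genes in CPM per kilobase of exon on a log axis, ordered by the NTC mean, with 3 points each for shMed1 #4, shMed1 #2 and NTC. Vim lies above 391 and Krt7 at most at 0.163 in every library, and Krt18 and Prrx1 show a gap between shMed1 #2 and the other groups.

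Among 15 other keratin genes 2 were tested. Krt80, a type II keratin, rose with both hairpins and so went against Krt8. It averaged 41.9 ± 2.53 CPM with shMed1 #4, 45.3 ± 0.131 CPM with shMed1 #2 and 28.6 ± 2.95 CPM in NTC (SD, n = 3 each). Its log2 fold change was 0.55 with shMed1 #4 (adjusted p = 6.63e-08) and 0.66 with shMed1 #2 (adjusted p = 6.29e-11), with no overlap with NTC. Krt10 was at -0.10 with shMed1 #4 and -0.02 with shMed1 #2 and was not called.

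Of 14 other intermediate filament and lamin genes, 7 were tested. With shMed1 #4, 3 passed the test and rose, where 28.2% of all tested genes were called, and with shMed1 #2, 3 rose and 2 fell, where 43.7% were called. Nes, which encodes nestin, a filament protein of progenitor cells, and Lmna, which encodes the lamins A and C of the nuclear envelope, rose with both: Nes by 0.38 with shMed1 #4 and 0.16 with shMed1 #2, and Lmna by 0.29 with shMed1 #4 and 0.13 with shMed1 #2. Des, the desmin gene of muscle, and Synm, the gene of its partner synemin, fell with shMed1 #2 (log2 fold change -1.43 for Des and -1.51 for Synm). Both rest on few counts. Des had 8, 7 and 5 counts with shMed1 #2 and 18, 18 and 17 in NTC. Synm had 16, 7 and 14 counts with shMed1 #2 and 25, 35 and 43 in NTC. With shMed1 #4, Des was at -0.70 and Synm at -0.40, and neither was called.

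Of 19 genes for desmosomes and the proteins that tie filaments to them, 11 were tested; 3 rose and 2 fell with shMed1 #4, and 4 rose and 6 fell with shMed1 #2, beside 28.2% of all tested genes called with shMed1 #4 and 43.7% with shMed1 #2. The median log2 fold change of the list was 0.02 with shMed1 #4, against 0.00086 over all tested genes, and -0.74 with shMed1 #2, against -0.0035 over all tested genes. Perp, a membrane protein of desmosomes, stood at 1.75, 1.93 and 1.85 CPM with shMed1 #4, at 1.15, 1.51 and 0.807 CPM with shMed1 #2, against 22.5, 19.3 and 23.6 CPM in NTC, the largest gap of any gene in these lists with shMed1 #4. Jup, which encodes plakoglobin, fell, with a log2 fold change of -0.46 with shMed1 #4 (adjusted p = 0.0326) and -1.71 with shMed1 #2 (adjusted p = 2.04e-11). Of the plakophilin genes, Pkp2 (0.59 with shMed1 #4 and 0.94 with shMed1 #2) and Pkp4 (0.43 with shMed1 #4 and 0.81 with shMed1 #2) rose. The linker gene Macf1, which was named after its value was seen, rose as well. Pkp1 and Pkp3, also named after their values were seen, fell with shMed1 #2 (-1.04 for Pkp1 and -1.08 for Pkp3). With shMed1 #4, Pkp1 was at 0.02 and Pkp3 at -0.33, and neither was called. The desmosome list thus held genes that moved with Krt8 and Krt18 and genes that moved with Vim.

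Of 24 other EMT transcription factor genes, 17 were tested; 3 rose and 5 fell with shMed1 #4 (28.2% of all tested genes were called), and 6 rose and 7 fell with shMed1 #2 (43.7%). Prrx2, the paralogue of Prrx1, stood at 47.4, 39.4 and 46.8 CPM with shMed1 #4, at 25.4, 29.6 and 29.7 CPM with shMed1 #2, against 49.6, 52.8 and 60.7 CPM in NTC. It fell, with a log2 fold change of -0.29 with shMed1 #4 (adjusted p = 0.00237) and -0.95 with shMed1 #2 (adjusted p = 1.96e-16), so both Prrx genes were lowest with shMed1 #2. Sox9 (log2 fold change -0.50 with shMed1 #4 and -0.98 with shMed1 #2) and Foxc1 (-0.27 with shMed1 #4 and -0.66 with shMed1 #2) also fell, while Etv4, an ETS factor, rose (0.41 with shMed1 #4 and 0.89 with shMed1 #2). Named after their values were seen, Tcf4 and Runx2 fell and Zfp703 and Tead1 rose with both hairpins.

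Of 18 genes for transcription and splicing regulators of the epithelial state, 7 were tested, and 9 had fewer than 10 counts in every library. With shMed1 #4, 2 rose and 1 fell, where 28.2% of all tested genes were called. With shMed1 #2, 3 rose and 1 fell, where 43.7% were called. Klf4 fell (log2 fold change -0.60 with shMed1 #4 and -0.65 with shMed1 #2), and stood at 33.3, 36.6 and 37.9 CPM with shMed1 #4, at 34.3, 38.9 and 31.2 CPM with shMed1 #2, against 53.6, 53.6 and 56.4 CPM in NTC. Elf3, an ETS factor of epithelia, rose by 0.59 with shMed1 #4 (adjusted p = 0.00284) and by 0.52 with shMed1 #2 (adjusted p = 0.00628), and Klf5 by 0.34 with shMed1 #4 and 0.66 with shMed1 #2. Grhl1, a grainyhead factor, was at 0.31 with shMed1 #4 and 0.00 with shMed1 #2 and was not called.

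Of 20 genes repressed in EMT, 5 were tested and 14 had fewer than 10 counts in every library. With shMed1 #4, 1 rose and 1 fell (28.2% of all tested genes called), and with shMed1 #2, 2 rose and 1 fell (43.7%). Cd24a, a surface protein of luminal cells, rose by 0.65 with shMed1 #4 and by 0.58 with shMed1 #2. Lama3, which encodes a laminin chain of epithelial basement membrane, fell (log2 fold change -1.54 with shMed1 #4 and -2.68 with shMed1 #2), on 5 to 8 counts a library with shMed1 #4, 2 to 5 with shMed1 #2 and 15 to 28 in NTC. Llgl2, a polarity gene, rose with shMed1 #2 (0.70, adjusted p = 6.80e-06) and was at 0.13 with shMed1 #4 (adjusted p = 0.549), and Itgb4 was not called with either (-0.22 with shMed1 #4 and -0.60 with shMed1 #2).

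Of 22 genes raised in EMT, 16 were tested; 6 rose and 6 fell with shMed1 #4, and 5 rose and 9 fell with shMed1 #2, where 28.2% and 43.7% of all tested genes were called with shMed1 #4 and shMed1 #2. The median log2 fold change of the list was -0.25 with shMed1 #4, against 0.00086 over all tested genes, and -0.20 with shMed1 #2, against -0.0035 over all tested genes. Cdh11, the cadherin gene of mesenchyme, rose by 0.62 with shMed1 #4 and by 1.11 with shMed1 #2, and Tagln, an actin-binding protein of smooth muscle, by 0.50 with shMed1 #4 and 1.16 with shMed1 #2. Pdgfrb, a growth factor receptor of mesenchymal cells, fell (log2 fold change -0.70 with shMed1 #4 and -1.36 with shMed1 #2). Mmp2, a matrix protease, had 17, 12 and 7 counts with shMed1 #4, 1, 0 and 1 counts with shMed1 #2, and 26, 20 and 31 counts in NTC; the ratio of shMed1 #2 to NTC was 0.0243 with a 95% counting interval of 0.0029 to 0.091. Named after their values were seen, Sparc and Tnc rose and Col5a1, Col6a1 and Axl fell with both hairpins, so that the genes raised in EMT did not all move with Vim.

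Cdh2, Fn1 and Acta2, also picked out after their values were seen, were called in opposite directions with the hairpins. How many of all tested genes were called in this way was not counted. Cdh2, the N-cadherin gene, stood at 2.21, 1.08 and 1.62 CPM with shMed1 #4, at 5.98, 4.18 and 4.84 CPM with shMed1 #2, against 3.76, 3.74 and 2.20 CPM in NTC. The log2 fold change of Cdh2 against NTC was -0.96 with shMed1 #4 and 0.63 with shMed1 #2. Between the hairpins Cdh2 was lower with shMed1 #4 (log2 difference -1.60, adjusted p = 1.61e-06). Its call against NTC was lost in 3 fits without a library for shMed1 #4 (adjusted p = 0.0581 to 0.0796) and under 3 alternatives for shMed1 #2 (0.0961 to 0.195). Against NTC, Fn1, the fibronectin gene, was only at 0.11 with shMed1 #4 and at -0.20 with shMed1 #2. Acta2, the smooth muscle actin gene, was at 0.46 with shMed1 #4 and at -0.13 with shMed1 #2. Between the hairpins, Fn1 was higher with shMed1 #4 by 0.32 and Acta2 by 0.59. The shMed1 #4 call of Fn1 was lost under 3 alternatives and the shMed1 #2 call of Acta2 under 5.

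**Figure D5:**
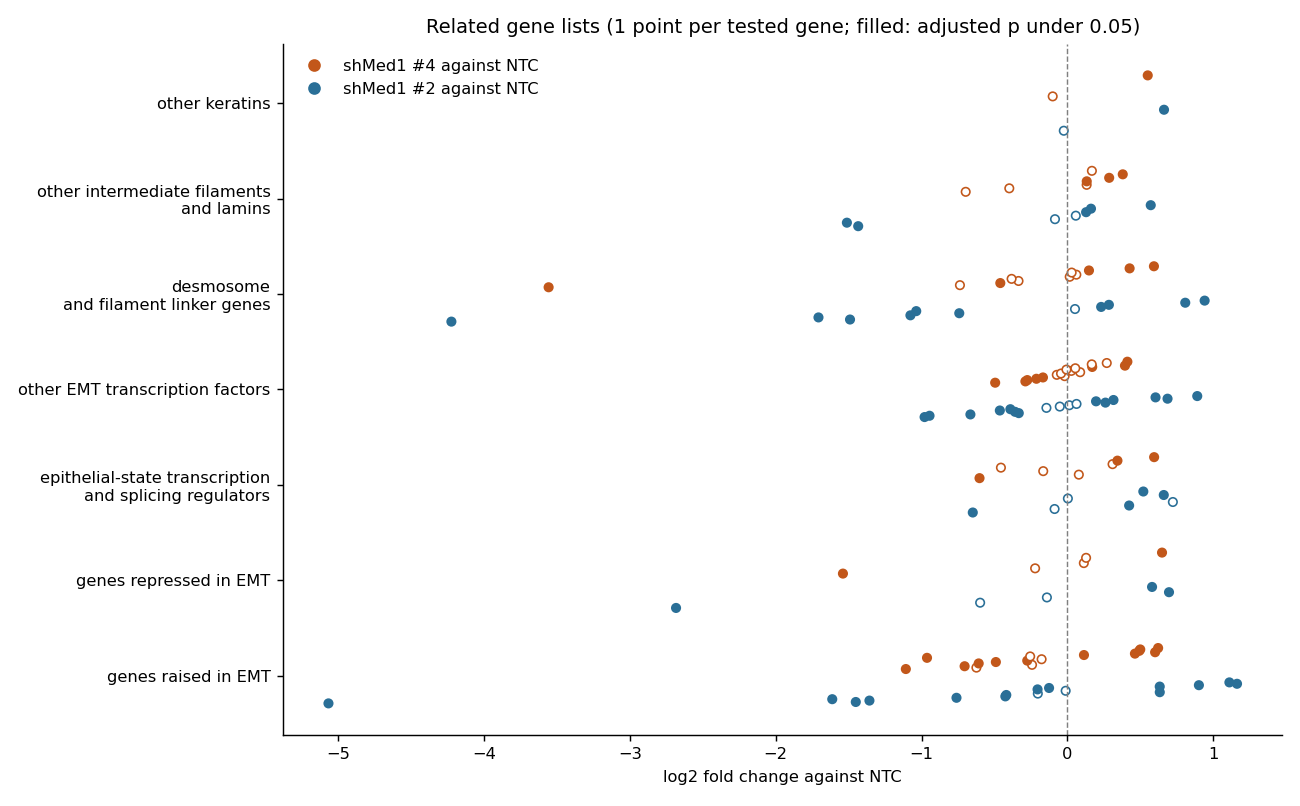
Log2 fold change against NTC of every tested gene of 7 related lists, with shMed1 #4 above shMed1 #2 in each row; filled points have an adjusted p under 0.05. Filled points lie on both sides of 0 for both hairpins in 5 of the 7 lists, while among the other keratins only Krt80 is filled, to the right of 0.

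Calls of Jup, Sox9, Prrx2, Lama3 and Mmp2 with shMed1 #4, and of Nes, Lmna and Elf3 with shMed1 #2, were lost under at least 1 alternative; for Jup the value was -0.30 (adjusted p = 0.25) without replicate 1 of shMed1 #4. Marker sums of fibroblasts and of basal cells also differed between groups, with no overlap. Leukocyte sums of shMed1 #2 overlapped those of shMed1 #4 and of NTC, and endothelial sums overlapped between all groups. The summed level of 8 fibroblast markers was 114 to 126 CPM with shMed1 #4, 80.9 to 89.0 CPM with shMed1 #2 and 174 to 188 CPM in NTC. Most of this sum came from Pdgfra and Pdgfrb in each group. Of the 8 genes, 4 averaged 1 CPM or more, Col3a1 and Dcn reached at most 1 count in any library, and Lum and Thy1 were at 0. The 7 basal markers summed to 303 to 365 CPM with shMed1 #4, 219 to 235 CPM with shMed1 #2 and 248 to 262 CPM in NTC, nearly all from Acta2, and Krt5 was at 0. The 8 leukocyte markers summed to 14.3 to 15.7 CPM with shMed1 #4, 13.9 to 17.1 CPM with shMed1 #2 and 16.8 to 19.7 CPM in NTC, with Cd3e, Itgam and Adgre1 at 0, and the 5 endothelial markers to at most 1.05 CPM in any library. The part of these differences in the results was not tested.

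Genes with the most similar pattern over the 9 libraries were sought for the filament genes, by the root mean square difference in centred log2 CPM. For Vim they were Lima1 (0.0213), which encodes an actin-binding protein, Mybl2 (0.0364), a transcription factor of the cell cycle, and Stat6 (0.039), a signal transducer of interleukin receptors. Lima1 averaged 156 ± 5.58 CPM with shMed1 #4, 178 ± 2.63 CPM with shMed1 #2 and 121 ± 1.81 CPM in NTC (SD, n = 3 each). For Krt18 they were Sh3d19 (0.0878), Scube3 (0.115) and Rab28 (0.124). For Krt8 they were Rassf2 (0.152), Rtkn2 (0.201) and Kif26b (0.208), and for Krt7 Cdkn1a (0.335), Adgrg1 (0.341) and Tnc (0.343). The match was closest for Vim and loosest for Krt7, the genes with the most and the fewest counts. Krt8 and Krt18, although neighbours and protein partners, were not among each other's 3 nearest genes.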

How the data were processed

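RNA of 9 samples was sequenced on a BGISEQ-500 instrument, per the labels. The authors deposited raw counts per gene in 1 file per sample. The submitters' processing notes name STAR and HTSeq as tools and GRCm38 (mm10) as build; versions, annotation release and strandedness were not given in sources used here, so reads of a gene and an antisense partner cannot be told apart. No row lacked a gene name (0). Symbols, positions and exon lengths come from GENCODE vM21 on GRCm38, which held 54587 of the versioned identifiers and, ignoring the version, 55154; start windows come from RefSeq on GRCm38.p6. Libraries held 8123918 to 8879982 counts, where 3 counts are 0.338 to 0.369 CPM. Replicates differed beyond sampling noise (chi-square divided by its degrees of freedom 1.55 to 2.53).

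Genes were kept by filterByExpr, which left 13611, scaled by TMM (factors 0.982 to 1.02) and tested with edgeR 4.0.16 in R 4.3.3 (quasi-likelihood, robust, 1 coefficient per group, all 9 samples). Benjamini-Hochberg adjustment ran over all tested genes, and an adjusted p under 0.05 made a call. The common biological coefficient of variation was 3.68%, and intervals are at 95%. CPM per kilobase divides CPM by the union of exons. The 10 genes and the lists were chosen with earlier results of these data known, and no p-value was adjusted over a list alone. Also named are up to 4 genes per list, taking first those that both hairpins moved the same way, then those called on their mean, then the rest, by size on the mean, and for the filament genes the 3 nearest patterns whose average log2 CPM was at least 1. The alternatives comprised scaling by RLE, by the upper quartile or by library size alone; no filter; at least 50 counts in every sample of a group; DESeq2 1.42.0; a non-robust fit; a fit of the compared groups only; replicate number as a block; and leaving out each library. The edgeR step that calls genes was tested on simulated counts, drawn with the common coefficient of variation for every gene. Figures were drawn with matplotlib 3.10.9.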

Additional observations from a re-analysis of the deposited data

Results flagged for a closer look

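The direct test of shMed1 #4 against shMed1 #2 found a difference between the effects of the hairpins for 5 of the 9 tested genes, where 26.0% of all tested genes were called. These 5 are listed because both hairpins are directed at the same target. Krt8 was higher with shMed1 #4 by 0.85 on the log2 scale, Krt18 by 1.22, Snai1 by 0.25 and Prrx1 by 2.19, while Vim differed by -0.18. The call of Krt8 was lost in 4 fits that left out a library and that of Snai1 in 2, and the count was 3 without shMed1 #4 replicate 1. For Med1 itself the shMed1 #4 libraries gave 25.02, 26.6 and 25.5 CPM and the shMed1 #2 libraries 22.1, 25.2 and 24.7 CPM, ranges that overlap. The cause of the differences was not tested.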

How the results depend on the processing

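Over the 9 tested genes, 593 recomputed values kept their direction and their side of the threshold, 21 lost and 6 gained a call, and 15 changed sign; every change of sign was in a value that was not called. With a library left out, the number of these genes called was 2 to 4 for shMed1 #4 against NTC (3 with all libraries), 5 to 6 for shMed1 #2 against NTC (5), 4 to 5 for the mean of both hairpins (5) and 3 to 5 for shMed1 #4 against shMed1 #2 (5). Genes called in all then numbered 3172 to 3878 for shMed1 #4 (3836), 5290 to 6138 for shMed1 #2 (5947), 4561 to 5594 for the mean (5434) and 2817 to 3566 between the hairpins (3540). The other alternatives reached lower: DESeq2 called 2815 genes for shMed1 #4, 4903 for shMed1 #2, 4306 for the mean and 2524 between the hairpins. Replicate numbers did not pair the samples (correlations of same-numbered libraries -0.0413 to 0.0416); with the replicate number as a block the counts over the 9 genes were again 3, 5, 5 and 5.

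With library size alone, 42.2% of the calls for shMed1 #4 and 39.9% of those for shMed1 #2 were higher, against 49.8% for each with TMM. Snai1 was called lower on the mean of both hairpins with library size alone, upper quartile scaling, the stricter filter or without shMed1 #4 replicate 1 (adjusted p = 0.0183 to 0.0445). The values that changed sign spanned, with a library left out, -0.057 to 0.013 for Snai1 and -0.048 to 0.040 for Twist1 with shMed1 #4, -0.079 to 0.0011 for Twist1 and -0.12 to 0.0079 for Zeb1 with shMed1 #2, and -0.043 to 0.0014 for Twist1 on the mean. Between the hairpins they spanned -0.11 to 0.11 for Snai2, -0.011 to 0.077 for Twist1 and -0.066 to 0.024 for Zeb1, which was 0.0036 with library size alone. The causes of these changes were not tested. The mean of both hairpins uses all groups, so a fit of the compared groups only was not run for it. Depth limits Krt7 and the keratins with fewer than 10 counts.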
